A study of Mus musculus with 12 samples.

Results

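The genes described here are Cdkn1a and 8 further genes linked to the tumour suppressor p53 and to growth arrest: Ccng1, Mdm2, Phlda3, Bax, Gadd45a, Gadd45b, Trp53inp1 and Sesn1. They were picked by gene symbol, after the low level of Cdkn1a in Ppara KO livers was known, to ask whether other p53 target genes share it. Of the 9, 7 were measured through a transcript cluster of their own, out of 22180 genes tested on the array, with 1 cluster each. Gadd45a is measured only by a cluster listed with several gene symbols and is given no value, and Bax was not analysed here.

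Liver RNA came from 6 Ppara KO and 6 WT mice, all adult females of 12 to 14 weeks on the C57Bl/6 background, with 1 MoGene 2.0 ST array per animal. Ppara encodes PPARα, the fatty acid-binding nuclear receptor that drives fatty acid oxidation genes in liver. The labels name no allele, no cell type in which the gene was disrupted, no treatment, no feeding state and no collection time. Values are deposited log2 levels, and differences are Ppara KO minus WT. A gene is called higher or lower where the limma fit over all 22180 genes gave a Benjamini-Hochberg adjusted p under 0.05.

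The transcription factor p53 is stabilised by DNA damage and other stresses and binds paired decamer sites near its target genes. Its targets halt the cell cycle, promote cell death, repair DNA, adjust metabolism and, through Mdm2, limit p53 itself. Cdkn1a encodes p21, an inhibitor of cyclin-dependent kinases and the best known arrest gene of this response. In liver Cdkn1a also answers to signals that do not pass through p53, among them FOXO factors, glucocorticoids and the circadian clock.

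Across the arrays, medians lay between 4.13 and 4.17, and the median standard error (SE) of a difference was 0.0926. Ppara had a log2 level of 8.01 ± 0.13 in Ppara KO and 7.98 ± 0.16 in WT (mean ± SD, n = 6 each), with a limma adjusted p of 0.882. No source here places its probes inside or outside the disrupted part, and the level therefore does not check the genotype labels. Hepatocyte markers were at the top of the scale in every liver, with Alb, the albumin gene, at 13.16 in Ppara KO and 13.19 in WT, and 0 of 8 were called (1 had an unadjusted limma p under 0.05). Of 55 measured markers in 8 lists of liver cell types, blood cells and adipocytes, 3 were called higher and 4 lower. The share called over all genes was 10.2%. Those higher were the Kupffer cell gene Cd5l, the T cell gene Cd8a and, from the adipocyte list, Pparg (difference 0.70). Those lower were the cholangiocyte genes Krt19 and Sox9, and the adipocyte genes Lipe and Adipoq. Adipocyte markers stood apart in part of the WT animals: the mean log2 level of 8 markers was 4.50 to 4.77 in Ppara KO, 5.43, 6.14 and 6.17 in WT 1, 3 and 5, and 4.64, 4.60 and 4.90 in WT 2, 4 and 6. Clock genes differed too. The mean of 10 E-box clock genes was 7.23 to 7.93 in Ppara KO and 5.53 to 5.88 in WT. A list named the activator side held 5 genes, Npas2, Arntl, Nfil3, Clock and Cry1, although not all of them encode activators. Its mean was 5.80 to 6.73 in Ppara KO and 7.84 to 8.03 in WT.

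Because Cdkn1a is the textbook case of a gene with p53 sites upstream, both of its annotated promoter windows are shown (RefSeq, GRCm38.p6, plus strand, 250 bases before to 50 after a transcript start). The upstream window is chr17:29090729-29091028 and the downstream one chr17:29093519-29093818, with starts 2790 bases apart. Capitals mark exact matches to the p53 half-site consensus, or 2 such decamers side by side with at most 1 mismatch in all.
Cdkn1a upstream window: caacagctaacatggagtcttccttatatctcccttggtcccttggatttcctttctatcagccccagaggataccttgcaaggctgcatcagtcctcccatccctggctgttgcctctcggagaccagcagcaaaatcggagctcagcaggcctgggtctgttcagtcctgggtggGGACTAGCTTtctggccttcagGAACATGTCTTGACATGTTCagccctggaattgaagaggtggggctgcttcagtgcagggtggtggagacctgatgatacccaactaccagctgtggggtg
Cdkn1a downstream window: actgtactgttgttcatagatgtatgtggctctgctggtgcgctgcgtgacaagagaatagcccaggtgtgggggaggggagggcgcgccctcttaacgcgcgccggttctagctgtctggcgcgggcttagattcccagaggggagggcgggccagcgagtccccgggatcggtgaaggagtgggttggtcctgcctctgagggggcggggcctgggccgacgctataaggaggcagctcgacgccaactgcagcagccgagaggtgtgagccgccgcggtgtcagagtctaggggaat

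The upstream window holds the pair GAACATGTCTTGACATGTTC at chr17:29090928-29090947, which begins at position -51 from the upstream start, and the downstream window has no match. Of the 9 genes, 8 matched RefSeq promoter windows, 10 windows in all, and only Cdkn1a and Ccng1 had such a pair; Trp53inp1 is the gene without a window. The Ccng1 pair, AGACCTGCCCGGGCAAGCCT, lies at chr11:40755462-40755481 on the minus strand, at position -195. Such pairs are rare, in 29 of 32851 windows (0.0883%), whereas a single exact half-site occurs in 8.36%. The E-box CACGTG, bound by clock activators, occurred in the windows of Bax and Gadd45b, against 7.15% of all windows. The nuclear receptor half-site AGGTCA occurred in 0 of the 10 windows, against 16.3% of all. E-box and half-site were searched on both strands. A match says only that the letters are present. Its absence covers only the searched letters within these windows of 300 bases, and 10 windows are few for a comparison of shares.

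Cdkn1a mRNA was far lower in Ppara KO livers, by 3.88-fold (95% interval 2.46 to 6.11). Its log2 levels were 6.81, 6.35, 7.48, 6.44, 5.46 and 5.17 in Ppara KO 1 to 6, against 8.57, 7.86, 8.26, 7.87, 8.43 and 8.44 in WT 1 to 6. The highest Ppara KO animal stayed 0.38 below the lowest WT animal. The difference was -1.95 (SE 0.31), the 16th lowest among 22180 genes. Since this value led to the choice of the set, it is a description and no test is read from it. In whole liver RNA, fewer cells that carry a transcript and less of it per cell cannot be told apart.

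The Ppara KO animals also differed widely among themselves. The SD of Cdkn1a was 0.86 in Ppara KO and 0.30 in WT, which placed it at the 99.9th percentile of the within-group SD of all genes in Ppara KO and at the 92.8th in WT. The lowest and highest Ppara KO livers were 2.31 apart in log2, against 0.70 in WT. Without any 1 animal the difference stayed between -2.19 and -1.73.

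**Figure D1:**
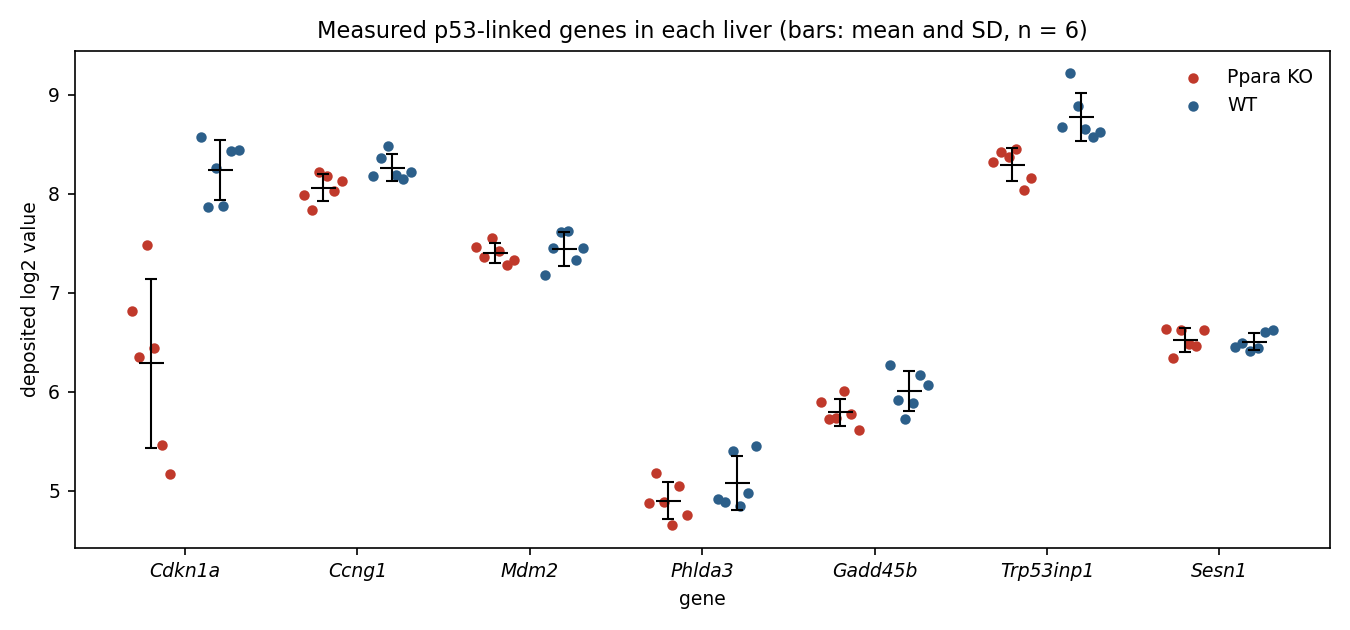
Deposited log2 level of the 7 measured genes in each liver, Ppara KO (red) left of WT (blue), with black bars for mean and SD (n = 6). Cdkn1a and Trp53inp1 are the genes whose groups do not overlap, and the Cdkn1a points of Ppara KO spread from 5.17 to 7.48.

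The other 6 genes had smaller differences than Cdkn1a, from -0.48 to 0.02. Their mean was 6.77 to 6.89 in Ppara KO and 6.94 to 7.09 in WT, without overlap, which is given as a description. In the fit over all genes 2 of the 7 were called, both lower, beside 10.2% of all genes called, 5.77% lower and 4.46% higher; as the set was chosen on this contrast, nothing is read from the count. The groups did not overlap in the same 2 genes, Cdkn1a and Trp53inp1, beside 6.51% of all genes. The median difference of the 7 was -0.20, and of the 6 without Cdkn1a -0.19, against 0.01 over all genes, with 6 of 7 below 0. When WT 1, 3 and 5, whose adipocyte markers were high, were dropped, Trp53inp1 lost its call (difference -0.54, limma adjusted p 0.0537). The Cdkn1a difference was then -1.78. The part of clock state and of adipocyte RNA in these differences was not tested.

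Mdm2 and Ccng1 act in the p53 feedback loop. Mdm2, the ubiquitin ligase that marks p53 for destruction, ran from 7.28 to 7.55 (median 7.39) in Ppara KO and from 7.18 to 7.63 (median 7.45) in WT. Its difference was -0.04, with a 95% interval of -0.22 to 0.13, and the Ppara KO range lay inside that of WT. Ccng1, cyclin G1, which steers a phosphatase to Mdm2, ran from 7.84 to 8.21 (median 8.07) in Ppara KO and from 8.15 to 8.48 (median 8.20) in WT. Its difference of -0.20 (95% interval -0.38 to -0.03) was not called over all genes, with 4 of 6 Ppara KO livers below the lowest WT liver. Ccng1 carries the other pair of p53 half-sites among the searched windows.

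Phlda3, a repressor of the survival kinase AKT, had 4.65 to 5.18 (median 4.88) in Ppara KO and 4.84 to 5.45 (median 4.95) in WT. The difference was -0.18 (95% interval -0.44 to 0.08), without a call. Array values understate changes of genes at low levels. The mean of Phlda3 over all arrays, 4.99, lay at the 55.8th percentile of all genes, and no detection limit was given for this gene. Gadd45b, a stress-induced regulator of MAP kinase signalling and DNA demethylation, ran from 5.62 to 6.00 (median 5.75) in Ppara KO and from 5.72 to 6.27 (median 5.99) in WT. Its difference of -0.21 (95% interval -0.42 to -0.01) was not called, and every Ppara KO liver except Ppara KO 6 lay within the WT range.

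Trp53inp1, which encodes a stress protein that promotes p53 activity and autophagy, was the other gene with separate groups. It ran from 8.03 to 8.45 (median 8.34) in Ppara KO and from 8.58 to 9.21 (median 8.66) in WT, with a gap of 0.12 between them. The difference was -0.48 (SE 0.11), or 1.39-fold lower (95% interval 1.18 to 1.64), against 3.88-fold for Cdkn1a. Sesn1, a sestrin that restrains the growth kinase complex mTORC1, was close in both genotypes, with 6.33 to 6.63 (median 6.55) in Ppara KO and 6.41 to 6.62 (median 6.47) in WT and a difference of 0.02 (95% interval -0.13 to 0.17).

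Relatives outside the set changed in both directions. Of 12 measured paralogues and close relatives, 4 fell and 2 rose, beside 10.2% of all genes and 17.5% of genes at or above the median level, where 11 of the 12 lie. Gadd45g, the third Gadd45 gene, ran from 6.22 to 6.93 in Ppara KO and from 7.14 to 9.01 in WT, a difference of -1.44 (SE 0.22, limma adjusted p 6.84e-04). Ccng2, a cyclin G that FOXO factors induce, ran from 4.48 to 4.98 in Ppara KO and from 5.58 to 6.07 in WT, a difference of -1.09 (SE 0.098, limma adjusted p 4.28e-06). In both genes the groups did not overlap.

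Phlda1, a relative of Phlda3, fell as well (-0.86, SE 0.16, limma adjusted p 0.00341), although WT 5 at 6.96 lay within the Ppara KO range. Bak1, a pore-forming partner of Bax, fell by 0.37 (SE 0.089, limma adjusted p 0.0145). Sesn2, a sestrin induced by ATF4 and NRF2 as well as p53, rose, with 5.36 to 5.95 in Ppara KO and 4.82 to 5.37 in WT (0.57, SE 0.11, limma adjusted p 0.00299). Cdkn1b, the gene of the CDK inhibitor p27, rose by 0.27 (SE 0.059, limma adjusted p 0.00889), with 6.26 to 6.41 in Ppara KO and 5.95 to 6.16 in WT. The calls of Cdkn1b and Bak1 ended without WT 1, 3 and 5 (0.28, limma adjusted p 0.0615, and -0.35, limma adjusted p 0.0952). The 6 relatives that were not called, Cdkn1c, Mdm4, Phlda2, Sesn3, Bok and Trp53inp2, had differences between -0.35 and 0.12. Bok and Trp53inp2 were called lower in some settings, without Ppara KO 5 for Bok (limma adjusted p 0.0400) and without Ppara KO 2 for Trp53inp2 (limma adjusted p 0.0310).

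**Figure D2:**
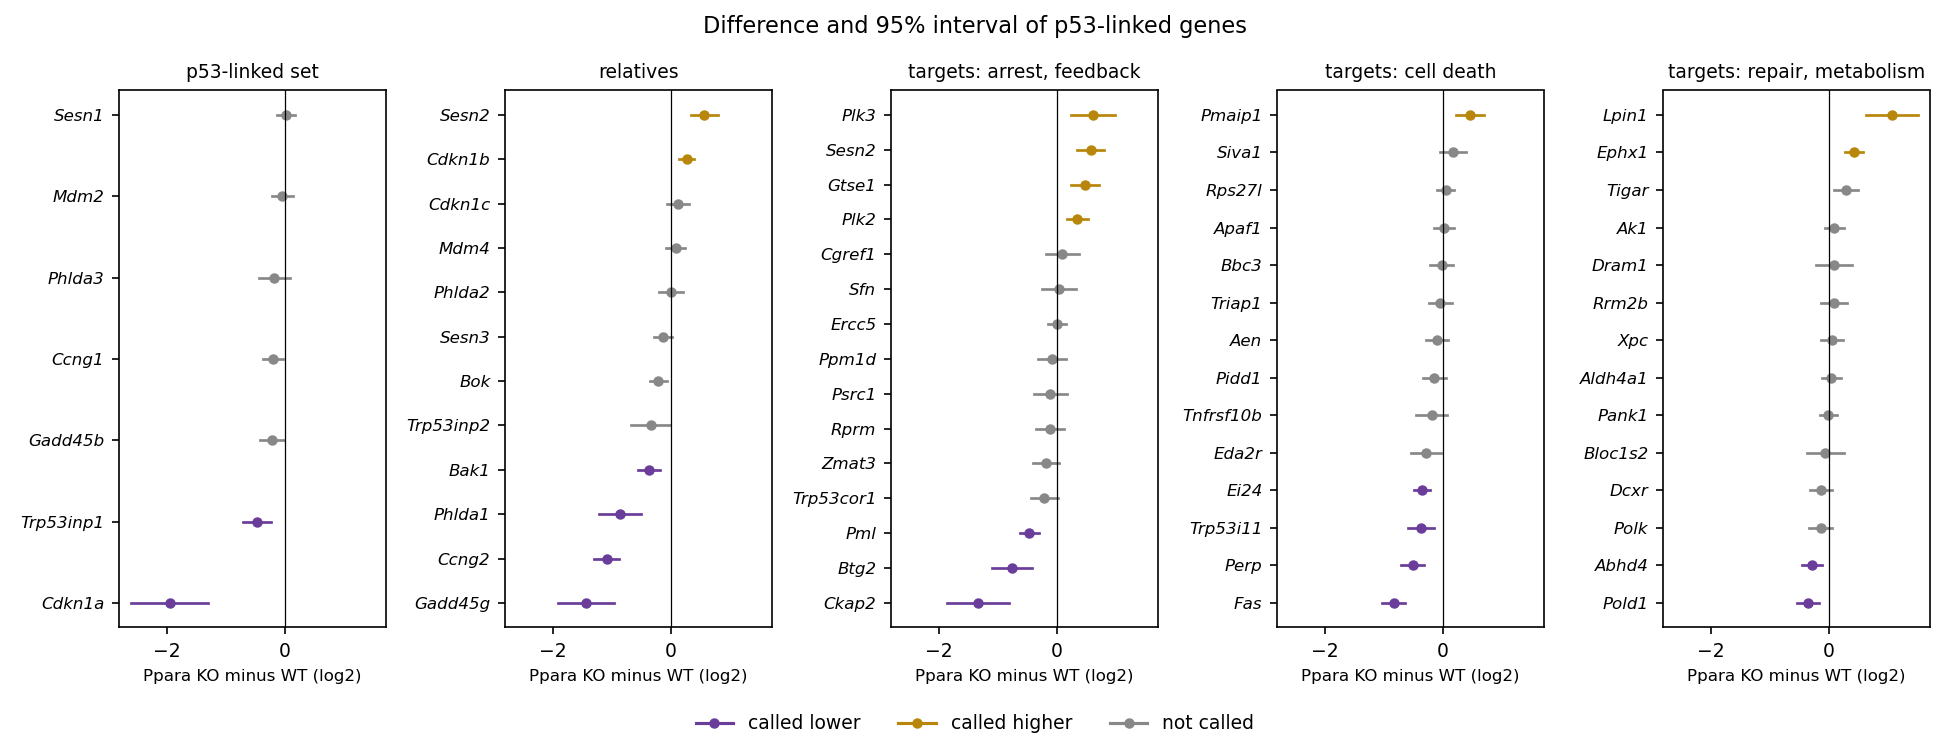
Ppara KO minus WT difference (log2, horizontal axis) with its 95% interval for the 7 measured genes, 12 relatives and the 43 further p53 target genes in 3 lists; purple is called lower, gold higher and grey not called. Calls lie on both sides of 0 in every panel except the first, where Cdkn1a at -1.95 stands far from the other 6.

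A wider set of 43 measured p53 target genes had no common direction in its calls. It was listed from textbook knowledge of p53, but with earlier results of these data known, so its counts are a description. Of the 43, 9 fell, 7 rose and 27 were not called. That is 37.2% called, beside 10.2% of all genes and 17.5% of those at or above the median level, where 35 of the 43 lie. Their median difference was -0.05, against 0.01 over all genes. With WT 1, 3 and 5 left out, 5 fell and 4 rose. By list, the mean of the cell death targets was 5.83 to 6.00 in Ppara KO and 6.01 to 6.15 in WT, without overlap. The other 2 list means overlapped. That of arrest and feedback was 5.43 to 5.55 in Ppara KO and 5.46 to 5.74 in WT. For repair and metabolism it was 6.91 to 7.01 in Ppara KO and 6.85 to 6.98 in WT. Many of the 43 genes also answer to regulators other than p53.

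Among 15 arrest and feedback targets 3 fell and 4 rose. Sesn2, also counted among the relatives, rose as given above, and Gtse1, Plk2 and Plk3, named after their values were seen, rose by 0.47 (limma adjusted p 0.0125), 0.35 (limma adjusted p 0.0183) and 0.61 (limma adjusted p 0.0351). The calls of the polo-like kinase genes Plk2 and Plk3 ended without WT 1, 3 and 5 (0.39, limma adjusted p 0.0791, and 0.50, limma adjusted p 0.179), and that of Plk3 also when any 1 of 7 was dropped (WT 1, 5 or 6, or Ppara KO 1, 2, 5 or 6). Ckap2, a spindle protein gene, had 3.04 to 3.48 in Ppara KO and 3.78 to 5.60 in WT, a difference of -1.35 (SE 0.25, limma adjusted p 0.00253). Its highest WT values, 5.30 and 5.60, came from WT 2 and 3. Btg2, an antiproliferative gene, fell by 0.77 (SE 0.16, limma adjusted p 0.00574), with 5.61 to 6.43 in Ppara KO and 6.31 to 7.34 in WT, and its call ended without WT 1, 3 and 5 (-0.74, limma adjusted p 0.0769). Pml, which builds nuclear bodies that activate p53, was at 7.24 to 7.61 in Ppara KO and 7.77 to 8.06 in WT (-0.47, SE 0.077, limma adjusted p 0.00121).

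Of 14 cell death targets 4 fell and 1 rose. Fas, the gene of a death receptor, had 7.52 to 7.95 in Ppara KO and 8.44 to 8.81 in WT, which is 1.79-fold lower (-0.84, SE 0.091, limma adjusted p 3.04e-05). Perp, a desmosome component linked to p53-driven death, had 8.07 to 8.57 in Ppara KO and 8.80 to 8.95 in WT (-0.52, SE 0.091, limma adjusted p 0.00192). Ei24, an endoplasmic reticulum protein of autophagy, had 9.01 to 9.26 in Ppara KO and 9.45 to 9.61 in WT (-0.36, SE 0.063, limma adjusted p 0.00170). In these 3 genes the groups did not overlap. The other that fell, Trp53i11 (-0.37, SE 0.10, limma adjusted p 0.0341; named after its value was seen), lost its call without WT 1, 3 and 5 (-0.25, limma adjusted p 0.315) and when any 1 of 8 was dropped (WT 1, 2, 3, 5 or 6, or Ppara KO 1, 2 or 3). Pmaip1, which encodes the BH3-only protein NOXA, rose by 0.45 (SE 0.11, limma adjusted p 0.0167), and its call ended without WT 1, 3 and 5 (0.44, limma adjusted p 0.0866).

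Of 14 repair and metabolism targets 2 rose and 2 fell. Lpin1, the gene of the phosphatidate phosphatase and transcriptional coactivator lipin 1, had 8.80 to 10.28 in Ppara KO and 8.12 to 8.83 in WT (1.06, SE 0.21, limma adjusted p 0.00377). Ephx1, the microsomal epoxide hydrolase gene, had 10.08 to 10.34 in Ppara KO and 9.63 to 9.94 in WT (0.43, SE 0.073, limma adjusted p 0.00147). Pold1, the catalytic subunit of DNA polymerase delta (-0.36, SE 0.087, limma adjusted p 0.0141), and Abhd4, a lysophospholipase gene (-0.29, SE 0.080, limma adjusted p 0.0300), fell. Both calls ended without WT 1, 3 and 5 (-0.34, limma adjusted p 0.129, for Pold1 and -0.31, limma adjusted p 0.138, for Abhd4), and Abhd4 also lost its call when any 1 of 6 was dropped (WT 2, 5 or 6, or Ppara KO 1, 2 or 6). Per list, the 3 brightest targets without a call were Ercc5, Ppm1d and Sfn, then Rps27l, Siva1 and Apaf1, then Pank1, Aldh4a1 and Dcxr. These 9 had differences between -0.14 and 0.17, and all 27 targets without a call between -0.29 and 0.29.

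**Figure D3:**
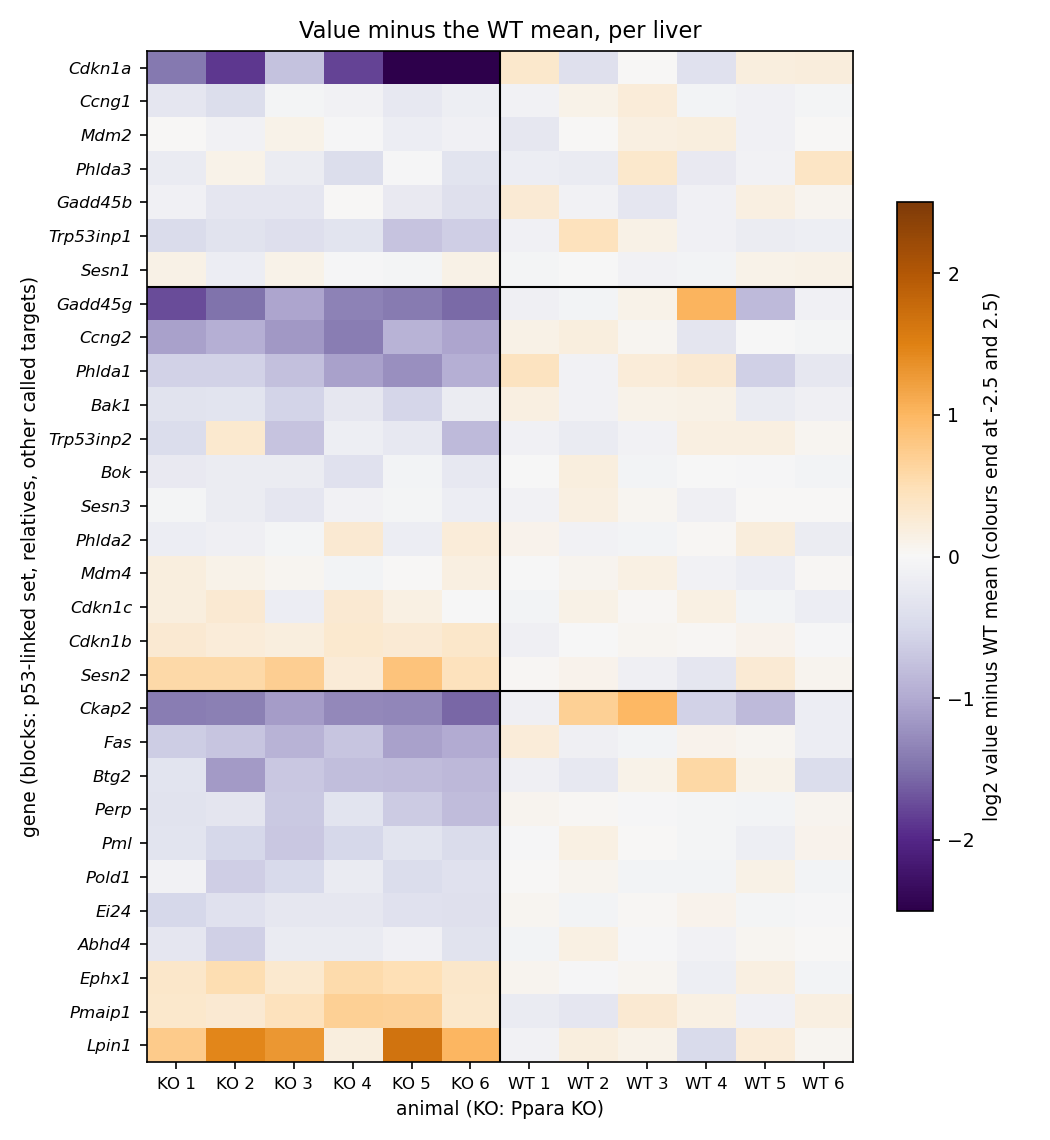
Log2 level minus the WT mean of each gene (colour) in each liver (columns, Ppara KO 1 to 6 then WT 1 to 6). The rows are the 7 measured genes, the 12 relatives and, per list, the called targets with the smallest limma adjusted p. Of the called targets named in the text, Gtse1, Plk2 and Plk3 (higher) and Trp53i11 (lower) are not drawn. The map therefore shows a smaller share of higher targets than the text. Cdkn1a, Gadd45g, Ccng2 and Fas are below the WT mean in all 6 Ppara KO livers, Cdkn1a most in Ppara KO 5 and 6, and Ephx1 and Sesn2 are above it.

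The genes with a p53 pair in their promoter window gave another view that did not rest on textbook membership, though it was added after the data were seen. The 29 windows belong to 29 genes, of which 17 were measured, and they include the p53 targets Cdkn1a, Ccng1, Gtse1 and Rps27l. Cdkn1a was called lower and Gtse1, a gene of the G2 phase that is named here after its value was seen, higher (0.47, SE 0.11, limma adjusted p 0.0125). Without Cdkn1a and Ccng1, 1 of 15 was called (6.67%), beside 10.2% of all genes, and the median difference was 0.01. Most of the 15 had levels below the array medians of 4.13 to 4.17. Olfr1062, for example, was at 1.59 in Ppara KO and 1.76 in WT. Changes are compressed at such levels, so the share does not tell whether expressed genes with a pair changed. Rps27l, a ribosomal protein gene, was not called (difference 0.04, limma adjusted p 0.763).

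Of 18 measured genes that act on p53, 2 rose and 0 fell. That is 11.1%, near the 10.2% of all genes and below the 17.5% of genes at or above the median level, where 15 of the 18 lie. Among the 18, 5 had an unadjusted limma p under 0.05, and Trp53 itself was not analysed here. Atm and Atr, the kinases that signal DNA breaks and stalled replication to p53, were up by 0.35 (SE 0.086, limma adjusted p 0.0170) and 0.30 (SE 0.084, limma adjusted p 0.0324). Atr had a difference of 0.05 with the mean of its transcript clusters, and its call was lost when any 1 of 7 was dropped (WT 4, 5 or 6, or Ppara KO 2, 3, 4 or 6). Both calls also ended without WT 1, 3 and 5 (0.32, limma adjusted p 0.148, for Atm and 0.33, limma adjusted p 0.131, for Atr). The other 16 regulators, among them the coactivator Crebbp, the kinase gene Hipk2 and the ligase gene Cop1, had differences between -0.18 and 0.23.

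The p21 protein acts on cyclin-dependent kinases, so G1 control genes were set beside it. Of 23, 3 fell and 1, Cdkn1b, rose, which is 17.4% called, beside 10.2% of all genes and 17.5% of those at or above the median level, where 19 of the 23 lie. E2f8, a repressor of E2F targets that is tied to hepatocyte polyploidy, fell the most, with 4.03 to 5.10 in Ppara KO and 6.07 to 6.63 in WT (-1.82, SE 0.17, limma adjusted p 7.10e-06). Cdkn3, a phosphatase gene, fell by 0.75 (SE 0.14, limma adjusted p 0.00382) and Rbl1, the p107 gene, by 0.39 (SE 0.10, limma adjusted p 0.0228). The Rbl1 call was lost when WT 2, Ppara KO 1 or Ppara KO 2 was dropped, and the Rbl1 and Cdkn3 calls when WT 1, 3 and 5 were (-0.33, limma adjusted p 0.220, and -0.67, limma adjusted p 0.0745). Ccnd1, which encodes cyclin D1, was not called (-0.33, SE 0.17, limma adjusted p 0.253).

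Proliferation genes were lower as well. Of 27 replication and mitosis genes 16 fell and 0 rose, beside 5.77% of all genes lower and 4.46% higher. The mean of the 27 was 4.41 to 4.68 in Ppara KO and 4.85 to 5.59 in WT. WT 1, 2 and 3 had means of 5.28, 5.59 and 5.57, and WT 4, 5 and 6 of 4.85, 4.86 and 4.89. Cdkn1a did not follow that split, as WT 2 was at 7.86 and WT 5 and 6 at 8.43 and 8.44. Cdkn1a had a Pearson r with the list mean of -0.06 over the 6 Ppara KO animals (exact permutation p 0.903, adjusted 0.994) and of -0.21 over the 6 WT animals (exact permutation p 0.614, adjusted 0.870). Without the 2 animals farthest from the median of Cdkn1a, r was -0.79 in Ppara KO and -0.45 in WT, each over 4 animals.

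Spread between animals of 1 genotype was not used to choose the set, so it was tested whether the genes varied with Cdkn1a there. The family held 18 relations: 6 genes and 3 list means in each genotype, by an exact 2-sided permutation test over 720 pairings. The strongest was Mdm2 in Ppara KO, with Pearson r 0.94 (exact permutation p 0.00694, adjusted 0.125) and Spearman rho 0.94 (exact permutation p 0.0167, adjusted 0.300), and r was 0.96 without the 2 animals farthest from the median of Cdkn1a. In WT the same pair had r -0.67 (exact permutation p 0.149, adjusted 0.610) and rho -0.77 (exact permutation p 0.103, adjusted 0.800). None of the 18 passed the correction by either measure. For 1 relation alone the smallest adjusted exact permutation p that 720 pairings allow is 0.025 for Pearson r and 0.050 for Spearman rho, so by rho no single relation could pass under 0.05.

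Gadd45b had r 0.37 with Cdkn1a in Ppara KO and 0.66 in WT, and Trp53inp1 0.72 in Ppara KO and -0.60 in WT. All 4 had adjusted exact permutation p of 0.610 or 0.870. The E-box clock mean had r -0.30 in Ppara KO and -0.38 in WT (adjusted exact permutation p 0.870 for both), and 6 animals allow no firmer statement. Among the 7 genes, correlations of the values after the genotype mean was taken away ran from -0.58 (Mdm2 with Gadd45b) to 0.48 (Ccng1 with Mdm2) over 12 arrays, and 8 of the 21 were below 0.

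**Figure D4:**
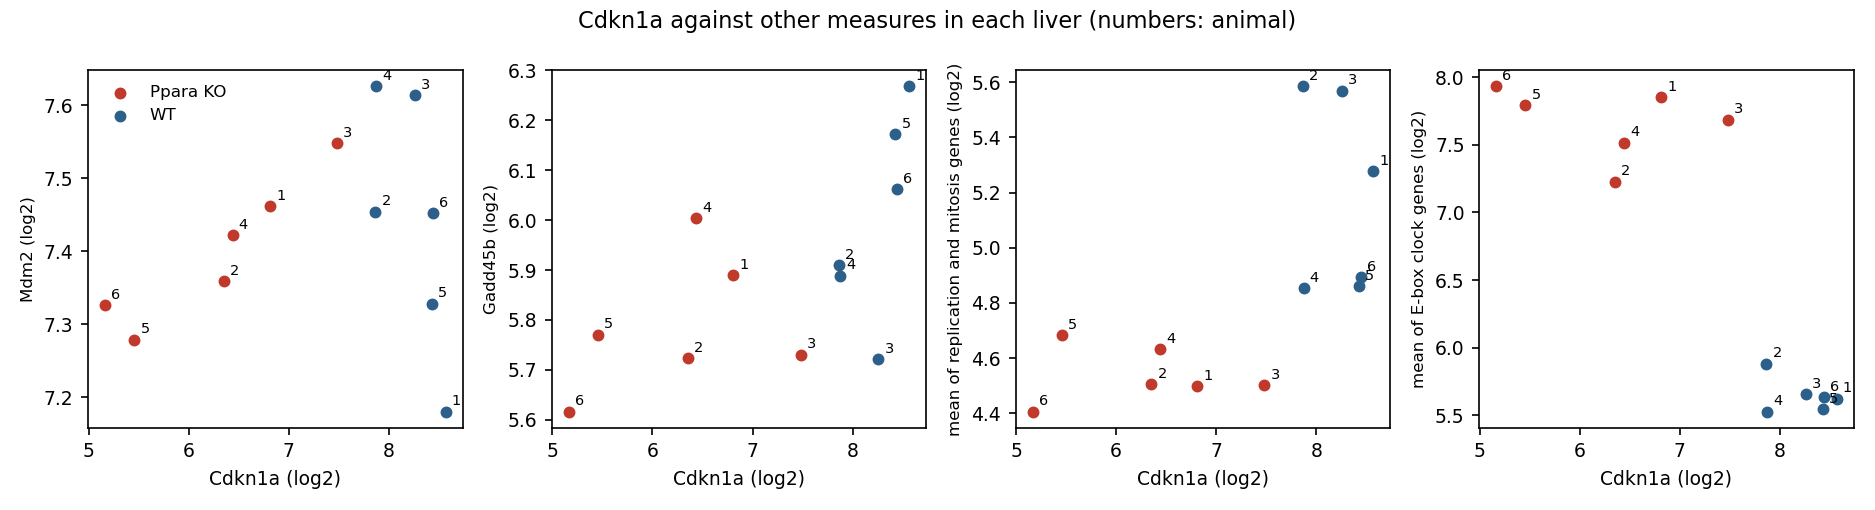
Cdkn1a (log2, horizontal axis) in each liver against Mdm2, Gadd45b, the mean of 27 replication and mitosis genes and the mean of 10 E-box clock genes (log2, vertical axes); red is Ppara KO, blue is WT, and numbers name the animals. Mdm2 rises with Cdkn1a over the 6 Ppara KO points (r 0.94) and runs the other way over the WT points (r -0.67).

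The genes most like Cdkn1a in their variation between animals were sought among 10351 genes, those at or above the median level without predicted genes and Gm, Rik, Mir, Snor, Olfr and locus-type symbols, by Pearson r over 12 arrays after the genotype mean was removed. Ppara KO animals carry 88.9% of the squared deviations of Cdkn1a, so this likeness is mostly theirs. The highest were Map1s (0.91), Zfp865 (0.90), Rhbdd2 (0.89), Tpst1 (0.89) and Tgm2 (0.87), and the lowest Pheta1 (-0.88), Ddx59 (-0.88), Ezh1 (-0.88), Polr3f (-0.86) and Tmem273 (-0.86). They are the extremes of many values and were picked as such. Of these 10, Tgm2, the tissue transglutaminase gene, was the 1 called between genotypes, with 8.51 ± 0.25 in Ppara KO and 8.88 ± 0.07 in WT (mean ± SD, n = 6 each).

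Other regulators of Cdkn1a and the Gadd45 genes were read as lists, whose genes all lie at or above the median level, where 17.5% of genes were called (10.2% of all genes). Of 8 FOXO-linked genes 2 rose and 3 fell, 62.5% called. Foxo3 rose (0.48, SE 0.085, limma adjusted p 0.00209), as did Klf15 (0.56, SE 0.11, limma adjusted p 0.00486), whereas Igfbp1 (-1.16, SE 0.16, limma adjusted p 2.99e-04), Irs2 (-0.95, SE 0.22, limma adjusted p 0.0130) and G6pc (-0.61, SE 0.17, limma adjusted p 0.0343; named after its value was seen) fell. Without WT 1, 3 and 5 the calls ended for Foxo3 (0.42, limma adjusted p 0.0575), Irs2 (-1.06, limma adjusted p 0.0721) and G6pc (-0.65, limma adjusted p 0.152), and G6pc also lost its call when any 1 of 7 was dropped (WT 1, 2, 3, 4 or 6, or Ppara KO 1 or 6). Of 12 ATF4 and endoplasmic reticulum stress genes Herpud1 (0.73, SE 0.094, limma adjusted p 1.51e-04) and Trib3 (0.51, SE 0.12, limma adjusted p 0.0143) rose, Fgf21, the gene of a fasting hormone that PPARα induces, fell by 1.37 (SE 0.31, limma adjusted p 0.0107), and Atf4 itself had a difference of -0.16 without a call. Called genes were 25.0% of this list. Without WT 1, 3 and 5 the Fgf21 difference was -0.91 (limma adjusted p 0.0416), and the Trib3 call ended (0.57, limma adjusted p 0.0702). Of 10 glucocorticoid-induced genes 3 rose, the clock gene Per1 (1.47, SE 0.15, limma adjusted p 1.23e-05), Fkbp5 (0.55, SE 0.12, limma adjusted p 0.00982) and Pck1 (0.30, SE 0.086, limma adjusted p 0.0374), and 1, Igfbp1, fell, 4 of 10 in all. The Fkbp5 and Pck1 calls ended without WT 1, 3 and 5 (0.53, limma adjusted p 0.0821, and 0.24, limma adjusted p 0.238), and Pck1 also lost its call when any 1 of 7 was dropped (WT 1, 3 or 6, or Ppara KO 1, 2, 5 or 6). These lists had no single direction. They also share genes: Igfbp1 is counted in both the FOXO-linked and the glucocorticoid lists, and Per1 also among the E-box clock genes.

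The nuclear receptors that oppose each other at clock-driven promoters, REV-ERB and ROR, are part of the same setting. Nr1d1 and Nr1d2 are also counted among the E-box clock genes. Nr1d2, the REV-ERBβ gene, had 7.87 to 8.47 in Ppara KO and 5.79 to 6.49 in WT (1.97, SE 0.13, limma adjusted p 1.32e-07). Nr1d1, the REV-ERBα gene, rose by 1.10 (SE 0.29, limma adjusted p 0.0223), with 7.40 to 9.40 in Ppara KO and 7.31 to 8.38 in WT, and lost its call when WT 3, Ppara KO 1, Ppara KO 5 or Ppara KO 6 was dropped, and when WT 1, 3 and 5 were (1.27, limma adjusted p 0.0663). Rora had a difference of 0.03 without a call. The means of both clock lists, like Cdkn1a, did not overlap between genotypes. Of the single genes, 8 of the 10 E-box genes and 4 of the 5 on the activator-side list had no overlap, beside 6.51% of all genes. The exception on the activator-side list was Cry1, with a difference of -0.06 (limma adjusted p 0.891). The clock and Cdkn1a differences cannot be told apart between groups in these data.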

How the data were processed

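RMA log2 values, deposited by the authors for 41345 transcript clusters on 12 MoGene 2.0 ST arrays, were used as given; RMA and Partek are named, without versions, in the submitters' processing notes, and RMA corrects background, normalizes by quantiles and sums probes. Clusters were named from the platform annotation: 23521 had 1 symbol, 1814 several and 16010 none listed. For each symbol the cluster with the highest mean was kept, which gave 22180 genes. Ppara KO and WT (n = 6 each) were compared with limma 3.58.1 in R 4.3.3 (lmFit, eBayes, no covariate), with Benjamini-Hochberg adjustment over all genes and a threshold of 0.05. The fit was checked on simulated data.

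The set and all gene lists were chosen with earlier results of these data known. Text names all relatives of the set and, per list, up to 4 called genes by adjusted p and up to 3 uncalled genes by level. The labels do not say that replicates came from separate batches, and the number of arrays limits the precision. Replicate numbers did not pair the animals: same-number correlations ran from -0.047 to 0.043. Promoters came from RefSeq GRCm38.p6 and were searched with python 3.11.15. Alternatives were other variance models, scalings, filters and thresholds, a replicate block, leaving out each animal, and leaving out WT 1, 3 and 5.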

Additional observations from a re-analysis of the deposited data

Results flagged for a closer look

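In 6 of 132 groups of 6 animals checked, 1 animal stood apart by Dixon's test, where chance flags about 1 in 20 groups. WT 2 was high for Bok at 6.42 (other WT 6.15 to 6.21), for Rrm2b, a ribonucleotide reductase subunit gene, at 5.55 (other WT 5.10 to 5.24), and for the mean of the E-box clock genes at 5.88 (other WT 5.53 to 5.65). WT 1 was high for Trp53cor1, a long noncoding RNA gene next to Cdkn1a, at 5.30 (other WT 4.75 to 4.93). Ppara KO 6 was low for Zmat3, an RNA-binding p53 target, at 5.14 (other Ppara KO 5.51 to 5.64), and Ppara KO 1 was high for Bloc1s2 at 6.49 (other Ppara KO 5.45 to 5.79). No animal of either genotype stood apart by this test for Cdkn1a.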

How the results depend on the processing

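The Cdkn1a difference kept its direction in all 22 alternatives (-2.19 to -1.73). Some of them, such as the threshold of 0.01 and the replicate block, cannot change the difference of -1.95. As the Cdkn1a difference led to the choice of the set, its range over the alternatives is a description and no test is read from it. With a threshold of 0.01, 1070 genes were called (418 higher, 652 lower), 1 gene of the set and 9 further p53 targets (3 higher). Without WT 1, 3 and 5 together, 1008 genes were called (390 higher, 618 lower), 1 gene of the set and 9 further p53 targets (4 higher, 5 lower); 3 fewer animals enter this fit. Leaving out 1 animal gave 1817 to 2130 genes (755 to 930 higher, 1029 to 1238 lower), 2 genes of the set each time and 13 to 16 further p53 targets. With replicate number as a block, 1672 genes were called (687 higher, 985 lower), 2 of the set and 12 further targets (5 higher, 7 lower), and 0 of 6 animals correlated best with their own number. Without 1 animal, Sesn1 ran from -2e-04 to 0.058 and Ppara from -0.022 to 0.072. Without the 2 animals farthest from the median, r with Cdkn1a turned sign for Ccng1 in Ppara KO (-0.055), the clock activator mean in Ppara KO (-0.23, and Spearman rho -0.086) and in WT (-0.38), and Phlda3 in WT (-0.66); the cause was not tested. No scaling moved the median of all genes by over 0.1. The number of arrays limits the precision, and genes at low signal are compressed.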
